A study of Caenorhabditis elegans with 53 samples.

Results

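A set of 37 genes, known in the deposited tables only by clone-based identifiers and without a gene-class symbol, was followed through postembryonic life in neuronal nuclei of Caenorhabditis elegans. They were chosen from 4842 such genes among the 7974 that the authors kept as their neuronal set. The choice asked for a mean of at least 50 in adult control neurons, a log2 ratio of adult to L1 control neurons of at least 2 (pseudocount 1), and an L4 mean below 2 times the adult mean. The values were the authors' size-adjusted counts, divided here by 1 median-ratio factor per library, and are called scaled values. The adult minimum left 1404 genes, the ratio left 43, and the L4 limit dropped 6 of these. The control L1, L4 and adult neuronal libraries therefore chose the members, and their differences are given as a description with no test. By the same thresholds 30 of the 3132 genes with a gene-class symbol would qualify.

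The libraries came from nuclei tagged in neurons and pulled down (INTACT), here called neuronal IP, and from the whole preparation of nuclei, called input. All animals carried the tagging transgene otIs790, which the labels call UPN INTACT without naming its driver. The adult mutant neuronal IP libraries were 4 of lin-4(e912), a null of the lin-4 microRNA, 5 of a lin-14 gain-of-function allele and 3 of a lin-28 one. There were also 3 L1 libraries of lin-4(e912). The controls had 4 L1, 5 L2, 6 L4 and 7 adult neuronal IP libraries and 4, 3, 4 and 5 input libraries at the same stages. Animals were collected 8 ± 1 h (L1), 21 ± 1 h (L2), 40 ± 2 h (L4) and 53 ± 2 h (adult) after plating, but adult lin-4 and lin-14 mutants at 57 ± 2 h. About 600000 animals were pooled for an L1 or L2 replicate and about 200000 for an L4 or adult replicate. The protocol names the gain-of-function alleles lin-14(ot1087) and lin-28(ot1088), whereas the strain field reads lin-14(e1087) and lin-14(e1088), so the second of these is a lin-28 mutant by title and protocol only.

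The worm passes from L1 to adult without adding many neurons after the early larval stages, and much of what changes later is the expression of cells that no longer divide. The heterochronic pathway times such changes: the lin-4 microRNA represses the mRNAs of lin-14, a nuclear factor of early larval fates, and of lin-28, an RNA-binding protein that holds back the let-7 microRNA. Loss of lin-4, or a lin-14 allele that escapes repression, prolongs early larval programmes. Genes without a symbol are often short, nematode-restricted or unstudied, so for most members no role is given here.

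Total counts of the control libraries ranged from 8582120 to 53251753. The lin-4 gene, deleted in the null, was at 0 in all 7 lin-4 null libraries and averaged 12.4 ± 7.7 scaled values in adult control neurons (SD, n = 7). RNA of lin-14 averaged 2128 ± 460 in the lin-14 gain of function (n = 5) and 2264 ± 246 in adult controls (n = 7), and lin-28 is not in the table that covers the mutants, so RNA levels check neither of these alleles. The labelled tissue was met by its markers: summed over 20 pan-neuronal genes, CPM (counts scaled to a common total over all genes) were 7312 to 19082 in adult neuronal IP, against 803 to 1391 in adult input. Of the tissue lists, no germline, hypodermis or muscle marker is in the neuronal set, and germline and oocyte RNA can be read only from the control counts. There, 39 germline and oocyte genes summed to 11541 to 20980 CPM in adult neuronal IP, against 344 to 422 in L1 neuronal IP. The 24 yolk and intestine genes summed to 57696 to 118190 CPM in adult neuronal IP, against 1994 to 2413 in L1 neuronal IP. The neuronal set itself took 26.8 ± 5.8% of adult IP counts (n = 7) and 50.3 ± 2.3% of L1 IP counts (n = 4). Fewer cells of a type and less RNA per cell cannot be told apart in such bulk libraries.

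A single gene, ZC247.1, held most of the counts of the set. It lies on chromosome I at 10264456 to 10279225 on the minus strand, in coordinates of the authors' table, whose build is not named in the sources used here. Its listed exons span 13170 bases, and it overlaps T20F10.10 on the other strand, whose reads cannot be told apart from its own because the strandedness of counting is not stated. In L1 neurons the 4 libraries held 48172, 35208, 31146 and 53810 scaled values. In L2 the 5 libraries held 63157, 99396, 97990, 76032 and 69969. The 6 L4 libraries ran from 104774 to 194838 (median 176498), and the 7 adult libraries from 161394 to 228835 (median 184631). Adult and L1 libraries did not overlap, and the log2 ratio of the means was 2.15. ZC247.1 took 0.912 to 1.34% of all counts in adult neuronal IP and 0.437 to 0.837% in L1 neuronal IP. Per kilobase of exon its adult mean of 14185 was the highest of the set, ahead of 2762 for F27B10.1, and the median member stood at 414.

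The other abundant members were far lower and followed several courses. B0395.3 had 322, 322, 304 and 375 scaled values in L1, and 754, 920, 1229, 772 and 985 in L2. Its L4 libraries ran from 912 to 2929 (median 1414) and its adult libraries from 1399 to 3056 (median 2340). K11D2.4 had 246, 246, 193 and 332 in L1 and 889 to 2123 in adults (median 1303), and F15G9.1 had 204, 192, 198 and 213 in L1 and 461 to 1904 in adults (median 813). C26G2.2 stayed between 212 and 265 in L1 and 253 and 293 in L2, spanned 248 to 587 in L4, and reached 537 to 1472 in adults (median 825). F27B10.1, which now carries the symbol nssp-53, had 111, 212, 197 and 242 in L1 and 341 to 1314 in adults (median 741). In each of these genes the lowest adult library lay above the highest L1 library.

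ZK622.5 had the steepest course. Its L1 libraries held 9.37, 5.13, 5.3 and 1.6 scaled values and its L2 libraries 5.26 to 29. The L4 libraries held 116 to 325 (median 203) and the adult libraries 291 to 747 (median 643), so that L4 stood apart from both neighbours except that its highest library passed the lowest adult one. The log2 ratio of adult to L1 means was 6.53, against 3.85 for ZC449.8, 3.66 for F22F4.4, 3.46 for C33D9.3, 3.34 for T24E12.1 and 3.26 for F54F7.2. Over all members the ratios ran from 2.02 to 6.53 with a median of 2.55. Adult and L1 libraries did not overlap for 36 of the 37, where 13% of the 6325 genes tested in neuronal IP behaved so in that direction, a contrast the choice of members had used. The exception was R04A9.1, with 6.48 to 119 in adults and 3.53 to 16 in L1.

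**Figure D1:**
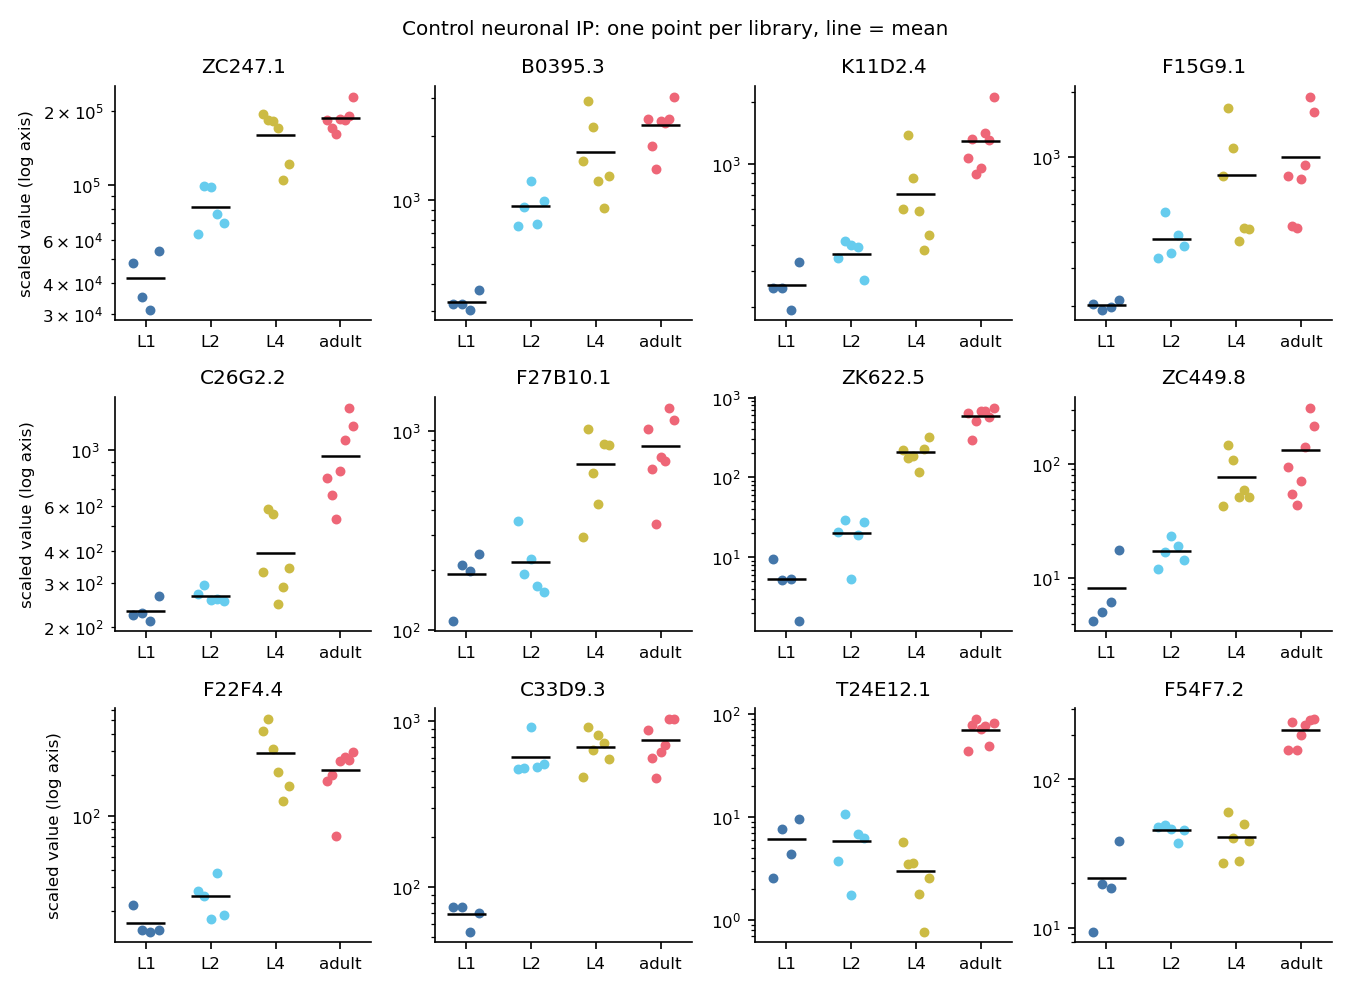
Scaled value (log axis) in every control neuronal IP library at L1, L2, L4 and adult for the 6 members with the highest adult mean and the 6 with the largest adult to L1 ratio. Points are libraries and lines are means; C33D9.3 is already high in L2, ZK622.5 and F22F4.4 climb by L4, and T24E12.1 and F54F7.2 have their highest libraries in adults.

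When each gene reached the midpoint of its change on the log2 scale differed. For 9 members the L2 mean was already past it, for 19 the L4 mean, and for 9 only the adult mean. C33D9.3 was the clearest early gene: its L1 libraries held 75.8, 76.1, 53.9 and 69.8, its L2 libraries 518, 524, 916, 530 and 550, and its adult libraries 455 to 1035 (median 717). F22F4.4 belonged to the L4 class, with 22.2, 14.5, 14.1 and 14.4 in L1, 28, 25.7, 17.5, 38.1 and 18.8 in L2, 129 to 516 in L4 (median 258) and 71.3 to 295 in adults (median 254). Its L4 mean of 291 ± 152 (n = 6) and adult mean of 217 ± 76.1 (n = 7) overlapped, and it was 1 of 5 members whose L4 mean lay above the adult mean. That order rested on part of the L4 libraries: F22F4.4 averaged 168 in L4 replicates 4 to 6 and 414 in replicates 1 to 3, and each of the 5 had a mean below its adult mean in 1 of these divisions. Over the set, 11 members had L4 replicates 4 to 6 wholly below replicates 1 to 3 and 3 had them wholly above, where 15.4% and 15.6% of genes tested did so. Among the late genes, T24E12.1, ZC53.1 and Y48B6A.10 were the 3 members whose L4 mean lay below their L1 mean. T24E12.1 had 2.56 to 9.63 in L1, 0.77 to 5.70 in L4 and 44.1 to 90.7 in adults. ZC53.1 had 36.6, 4.27, 7.07 and 11.2 in L1, 3.85 to 7.24 in L4 and 55.1 to 178 in adults, so its higher L1 mean rested mainly on L1 replicate 1. Y48B6A.10 had 5.13 to 9.71 in L1, 0 to 4.52 in L4 and 33.1 to 100.4 in adults. The L1 and L4 libraries overlapped for the first 2 of these genes and not for Y48B6A.10. In adults the log2 ratio of mean CPM of neuronal IP to input was between -0.22 and -0.14 for these 3, and their IP and input libraries overlapped.

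**Figure D2:**
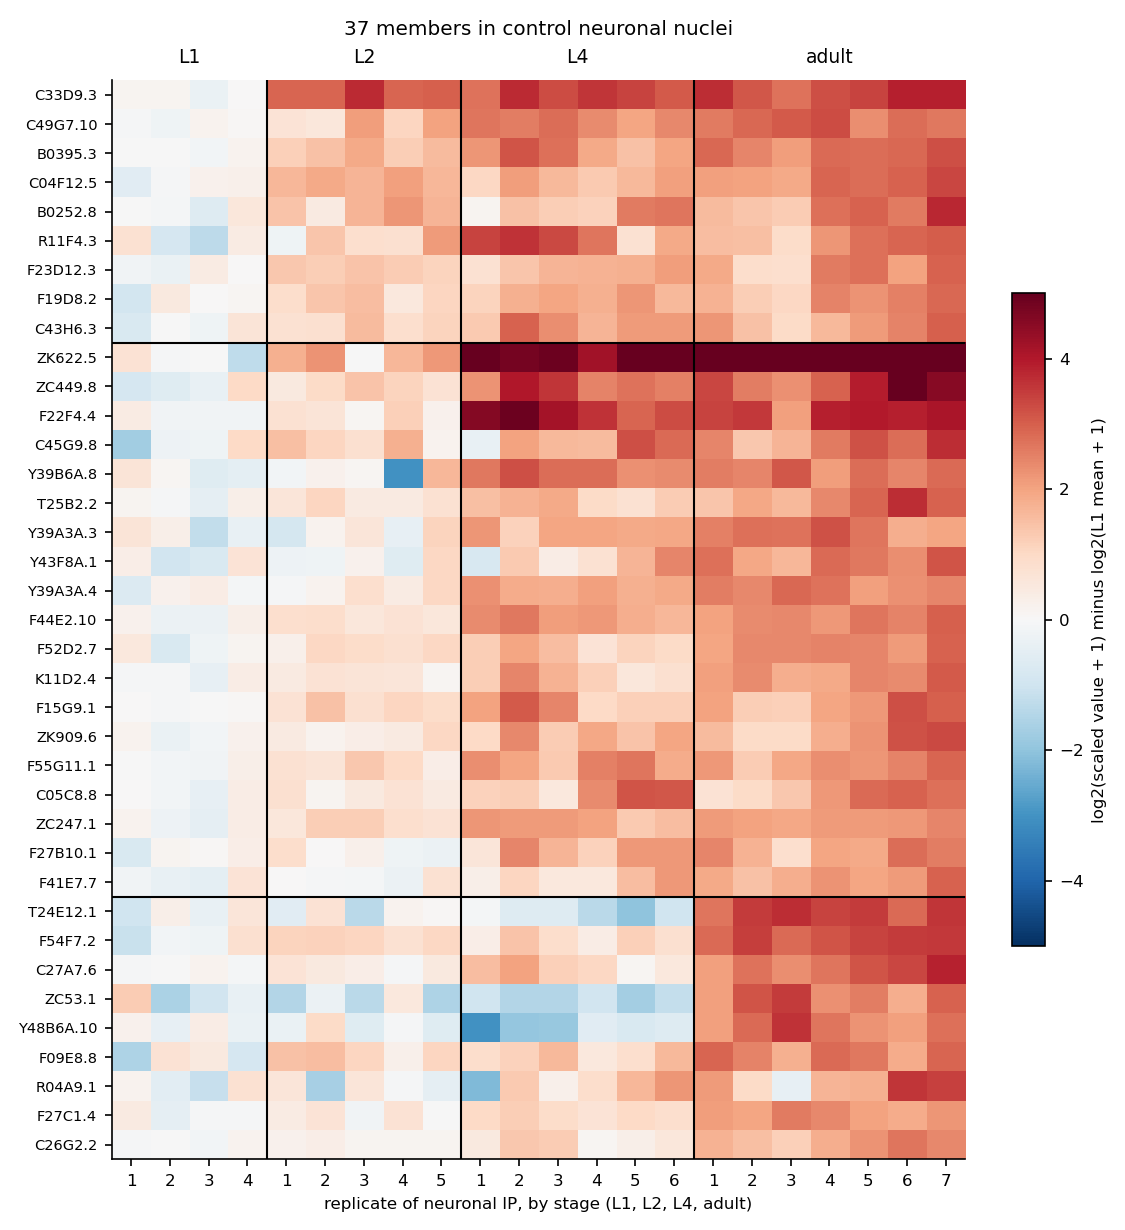
Heat map of the 37 members (rows) in the 22 control neuronal IP libraries (columns, by stage), as log2(scaled value + 1) minus the log2 of the L1 mean + 1, with colours capped at 5. Horizontal lines divide the 9 members past their midpoint in L2, the 19 in L4 and the 9 in adults.

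The size of these ratios hung on the scale. Scaled values are relative to the neuronal set, whose share of all counts was lower in adults. On CPM of all counts every member still had an adult mean above its L1 mean, but the median log2 ratio was 1.16, with 22 members at 1 or more and 5 at 2 or more. ZC247.1 had a log2 ratio of 0.78 on that scale and ZK622.5 one of 5.34. On size-adjusted values as deposited 19 genes met the thresholds. A count after TMM scaling of all genes gave 7, all of them members. Its adult minimum was not 50 on the CPM scale, where the members past 50 had log2 ratios under 2. The adult libraries were also uneven. Replicates 4 to 7 stood above replicates 1 to 3 by a median log2 ratio of 0.56 over the members and by -0.02 over all genes tested, and for 14 members no library of replicates 4 to 7 was as low as any of 1 to 3, where 13.6% of genes tested behaved so. Over the same division the summed CPM of 50 sperm genes was 610 to 1477 in replicates 4 to 7 and 100.2 to 154 in replicates 1 to 3, and that of the pan-neuronal genes 7312 to 11661 in replicates 4 to 7 and 12938 to 19082 in replicates 1 to 3. The part of these differences in the members' levels was not tested.

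Near the thresholds, the members of lowest adult mean were Y39B6A.8 (50.2), F19D8.2 (50.7) and R04A9.1 (51), and the genes just under it were C42D8.9 (40.3), F26C11.3 (35.1) and F08F8.6 (34.6). C26G2.2 (log2 ratio 2.02), C43H6.3 (2.11) and F41E7.7 (2.14) just met the ratio, which C02F12.8 (1.99), Y49G5B.1 (1.99) and C43F9.7 (1.98) just missed. The genes dropped by the L4 limit included Y51H7C.13, with means of 5808 in L4 and 445 in adults.

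A current reference names 36 of the 37 as protein-coding, and R11F4.3 had no match. It gives symbols to 10 members. The members F27B10.1 (nssp-53), C04F12.5 (nssp-7), F41E7.7 (nssp-87), B0252.8 (nssp-19) and Y43F8A.1 (nssp-72) share 1 gene class. F09E8.8 is nlp-79, of the neuropeptide-like protein class, whose members are cut into signalling peptides. C43H6.3 is mtpn-1, named after myotrophin, a small ankyrin-repeat protein in mammals. C27A7.6 is hrg-14, of the haem-responsive class, Y39B6A.8 is cpg-23, of the chondroitin proteoglycan class, and C05C8.8 is gtnt-3. Exon lengths ran from 171 bases for F22F4.4 to 13170 for ZC247.1, with a median of 858, against 762 over the table. Chromosome X carried 14 members, or 37.8%, against 21.0% of the table's genes. Both of these comparisons take in the table's 3132 genes with a gene-class symbol, from which no member could come. Y39A3A.3 and Y39A3A.4 are neighbours on chromosome III, both on the minus strand, with 4671 bases and no listed gene between them. Besides ZC247.1, 2 members overlap listed exons of genes on the other strand, namely F41E7.7 (F41E7.18 and F41E7.6) and Y48B6A.10 (Y48B6A.17), and their counts may hold reads of those genes.

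Neuronal IP was set against input to ask how far the members' RNA belongs to neurons. At L2, whose libraries the thresholds did not use, 22 of 37 members were higher in neuronal IP than in input and 0 were lower (edgeR quasi-likelihood test, Benjamini-Hochberg adjusted p under 0.05). Over the 21040 genes tested, 31.1% were higher and 11.2% lower, or 42.3% called. The authors chose the neuronal set, from which all members come, by neuronal IP against input on these samples, so this direction is not independent evidence. The median log2 fold change was 1.57 over the members and 0.46 over all genes. For comparison, 19 of 20 pan-neuronal genes were higher, with a median of 2.41, and 14 of 15 neuropeptide-processing genes, with a median of 2.70. The count was 11 without L2 input replicate 2, 12 without replicate 4 and 12 with no filter on low counts.

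Among the called members, F09E8.8 (nlp-79) had 14.5, 11.2, 7.05, 6.14 and 7.73 CPM in L2 neuronal IP and 0.83, 1.94 and 0.77 in L2 input, 3.08 higher on the log2 scale (SE 0.65, edgeR adjusted p = 0.000347). C27A7.6 (hrg-14) had 7.85 to 15.6 CPM in IP and 1.46, 1.22 and 3.08 in input (2.68, SE 0.35, edgeR adjusted p = 5.8e-07). C26G2.2 had 23 to 37.9 CPM in IP and 6.13, 6.06 and 8.01 in input (2.34, SE 0.33, edgeR adjusted p = 1.72e-06), and F23D12.3 had 2.71 (SE 0.58). In all these genes the IP libraries lay wholly above the input ones. ZC53.1 had 8 to 42 counts in the L2 IP libraries and 0 in all 3 L2 inputs. Pooled over libraries, it was at least 25.2-fold higher in IP when 3 counts over the group stand for the limit (counting error only). T24E12.1, with 2, 0 and 0 counts in the L2 inputs, had a fitted log2 fold change of 4.48 (SE 0.88) that rests on those counts. C49G7.10 was not called, with a log2 fold change of -0.21 (SE 0.37), and its 3 L2 inputs differed widely: input replicate 4 had 21.5 CPM, against 4.59 and 4.71 in the other inputs and 4.00 to 10.8 in IP. The early gene C33D9.3 was not called either (-0.06, SE 0.35).

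From stage to stage, the number of members whose IP libraries lay wholly above the inputs was 14 in L1, 22 in L2, 23 in L4 and 19 in adults, and 0 lay wholly below at any stage. Over the 7974 genes of the set the shares wholly above were 67.6%, 63.7%, 54.3% and 51.8% in the same order. The L1, L4 and adult IP libraries took part in the choice, so these counts describe the members only. In adults the members parted. The log2 ratio of mean CPM (pseudocount 0.1) of IP to input was 4.66 for ZK622.5, 4.18 for F09E8.8, 4.08 for F41E7.7 and 4.06 for F23D12.3. It was near 0 for C27A7.6 (-0.03), Y48B6A.10 (-0.14), F44E2.10 (-0.15), ZC53.1 (-0.19), F54F7.2 (-0.21) and T24E12.1 (-0.22). F41E7.7 had 10.1 to 18.7 CPM in adult IP (median 15.7) and 0.40, 0.28, 0.88, 1.27 and 1.07 in adult input. C27A7.6 had 21.0 to 40.2 CPM in adult IP (median 28.1) and 27.7, 28.2, 38, 31.3 and 28.2 in adult input. Y43F8A.1 (nssp-72) had 0 counts in all 4 L4 inputs and 5 to 128 in the L4 IP libraries. Pooled over libraries, it was at least 55.6-fold higher in IP by the same limit. L4 IP replicates 5 and 6 held 128 counts each, against 5 to 36 in replicates 1 to 4.

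The next question was whether the members also differed between adult and L1 in nuclei of the whole preparation, which the thresholds did not use, though the authors' choice of the neuronal set had compared IP with input. In adult input against L1 input, 19 members rose and 5 fell (edgeR, adjusted p under 0.05), and 13 were not called. The falls were fewer or more as libraries were left out: 3 without L1 input replicate 3 or 4 or adult input replicate 1, 2 without adult input replicate 2 and 7 without adult input replicate 5, while the rises stayed at 19 in number. Over 21040 genes, 27.2% rose and 31.9% fell, 59.1% in all. The median log2 fold change was 1.15 over the members and -0.31 over all genes. Pan-neuronal genes went the other way as a list, with 3 of 20 higher and 15 lower (median -1.70), as did neuropeptide-processing genes, with 0 of 15 higher and 12 lower (median -1.60). All 39 germline and oocyte genes and 41 of 48 sperm genes rose. Heterochronic genes divided, with 5 of 17 higher and 6 lower, as did hypodermis and cuticle genes, with 12 of 42 higher and 11 lower, and yolk and intestine genes, with 7 of 24 higher and 6 lower. Muscle genes fell for 16 of 25 and glial genes for 11 of 17, with 0 and 1 higher, and of 16 vulva, uterus and spermatheca genes 4 rose and 9 fell. Summed, the germline and oocyte genes stood at 19455 to 30018 CPM in adult input and 537 to 678 in L1 input. The yolk and intestine genes, though divided singly, summed to 112940 to 227248 CPM in adult input and 11146 to 14737 in L1 input. The part of either list in the members' change was not tested.

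The 4 largest rises in input were of members that had passed their midpoint only in adults. C27A7.6 (hrg-14) had 27.7, 28.2, 38, 31.3 and 28.2 CPM in adult input and 1.56, 1.90, 1.86 and 1.27 in L1 input, 4.73 higher on the log2 scale (SE 0.34, edgeR adjusted p = 6.8e-13). Y48B6A.10 had 3.20, 4.57, 4.18, 3.51 and 2.28 in adult input and 0.05, 0.28, 0.29 and 0.08 in L1 input (4.74, SE 0.68, edgeR adjusted p = 2.98e-07). T24E12.1 had 4.53, 3.88, 4.66, 5.74 and 5.34 in adult input and 0.14, 0.56, 0.29 and 0.30 in L1 input (4.38, SE 0.64, edgeR adjusted p = 5.08e-07). In all 3 genes every adult input library exceeded every L1 input library. ZC53.1 rose by 4.15 (SE 0.64), ZC449.8 by 3.26 (SE 0.51), F22F4.4 by 3.23 (SE 0.46), and F44E2.10 by 2.87 (SE 0.24, edgeR adjusted p = 5.58e-12). C26G2.2 rose by 2.74 (SE 0.30, edgeR adjusted p = 1.92e-09). C26G2.2 had 27.2, 40.1, 41.2, 54.4 and 52.9 CPM in adult input and 7.96, 12.1, 8.57 and 7.76 in L1 input. Some of these genes were uneven within adult input. F22F4.4 had 2.27, 3.56, 2.26, 10.4 and 11.5 CPM there and 0.78, 1.09, 0.55 and 1.12 in L1 input, and ZC449.8 had 2.34, 2.45, 2.34, 6.64 and 5.34 in adult input and 0.92, 0.41, 0.55 and 0.30 in L1 input, replicates 4 and 5 standing highest in adult input in both. The summed sperm genes ran from 1299 to 1702 CPM in adult input replicates 4 and 5 and from 148 to 192 in replicates 1 to 3, and their part in the members' change was not tested. With adult input replicates 4 and 5 alone 18 members rose and 2 fell, and with replicates 1 to 3 alone 17 rose and 6 fell. ZK622.5 also rose in input, by 1.70 (SE 0.55, edgeR adjusted p = 0.0084), though its input level stayed low, with 0.67, 0.55, 1.04, 2.23 and 1.70 CPM in adults and 0.50, 0.37, 0.64 and 0.60 in L1.

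The members that fell in input were Y39B6A.8 (cpg-23), by 2.34 (SE 0.62, edgeR adjusted p = 0.00168), Y39A3A.3, by 1.54 (SE 0.60), F09E8.8 (nlp-79), by 1.41 (SE 0.54), F41E7.7 (nssp-87), by 1.23 (SE 0.51), and Y39A3A.4, by 0.93 (SE 0.35). Y39B6A.8 had 0.19, 0.32, 0.23, 0.21 and 0 CPM in adult input and 0.78, 1.22, 1.93 and 1.94 in L1 input, with no overlap. In neuronal IP, where the choice fixed the direction, it had 2.11 to 5.12 CPM in adults (median 2.63) and 0.66 to 1.63 in L1. The neighbours Y39A3A.3 and Y39A3A.4 thus changed in the same direction in input. The most abundant member, ZC247.1, was not called: it had 1526, 3198, 2440, 2569 and 3189 CPM in adult input and 5408, 4089, 3629 and 3128 in L1 input, and its log2 fold change was -0.15 (95% interval -0.64 to 0.33, edgeR adjusted p = 0.611). That fold change is on the TMM scale, whereas the CPM values are shares of all counts.

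**Figure D3:**
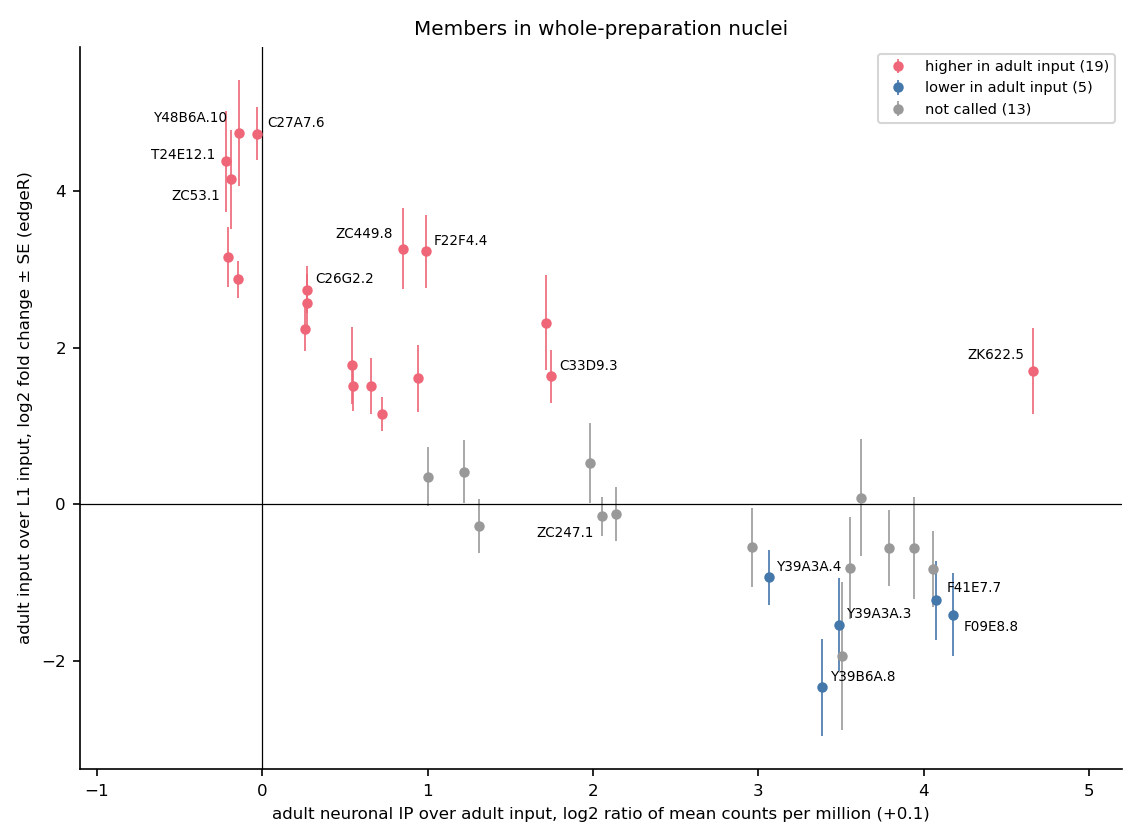
Each point is a member: the log2 fold change of adult input over L1 input with its SE (vertical) against the log2 ratio of adult neuronal IP to adult input (horizontal). The 19 members higher in adult input include those near 0 on the horizontal axis, and the 5 lower ones lie right of 3; both axes use the adult input libraries, so the slope between them is not a result.

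Whether the members still changed without the lin-4 microRNA was tested within the null, in libraries the choice had not used. In adult lin-4 null neurons against L1 lin-4 null neurons, 33 of 37 members rose and 0 fell (limma on log2 of the scaled value plus 1, adjusted p under 0.05), where 12.2% of the 6325 genes tested rose and 11.7% fell (23.9% called). The median log2 fold change was 2.11 over the members and -0.08 over all genes. Pan-neuronal genes were mostly not called, with 2 of 19 higher and 1 lower, and 4 of 8 heterochronic genes rose. ZK622.5 had 142, 116, 286 and 282 scaled values in adult lin-4 null libraries and 8.66, 11.2 and 15 in L1 lin-4 null libraries, a log2 fold change of 3.96 (SE 0.44, limma adjusted p = 1.9e-08). C33D9.3 had 263, 362, 503 and 451 in adults and 73.6, 61.8 and 62.8 in L1 (2.52, SE 0.29, limma adjusted p = 2.78e-08). F22F4.4 had 54.8, 92.6, 144 and 94.6 in adults and 4.33, 10.3 and 11.3 in L1 (3.35, SE 0.41, limma adjusted p = 1.54e-07). Adult and L1 libraries did not overlap in any of the 3. R04A9.1 rose by 3.79 (SE 0.78), B0252.8 (nssp-19) by 3.51 (SE 0.51) and ZC449.8 by 3.36 (SE 0.52). All 5 members of the nssp class were among those that rose.

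The 4 members not called were Y48B6A.10, at 0.13 (95% interval -0.88 to 1.15), C26G2.2, at 0.34 (-0.25 to 0.94), C05C8.8 (gtnt-3), at 0.44 (-0.64 to 1.52), and C45G9.8, at 1.46 (0.20 to 2.72). C26G2.2 had 263, 341, 239 and 306 scaled values in adult lin-4 null libraries and 268, 203 and 207 in L1 lin-4 null libraries, so the groups overlapped. Y48B6A.10 had 14.2, 9.45, 9.79 and 9.05 in adults and 5.19, 11.2 and 14.1 in L1, again with overlap. The intervals of Y48B6A.10, C26G2.2 and C05C8.8 lie below the log2 ratios of 2.71, 2.02 and 2.21 that these genes had between the control stages. That difference was not tested because the controls chose them.

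The mutants were then set against each other, since adult control libraries took part in the choice. In adult lin-4 null against adult lin-28 gain-of-function neurons, 17 members were lower and 0 higher (limma, adjusted p under 0.05), where 4.81% of 6325 genes were lower and 2.77% higher (7.57% called). In adult lin-14 gain-of-function against lin-28 gain-of-function neurons, 23 were lower and 1 higher, where 12.2% were lower and 7.56% higher (19.7% called). The median log2 fold changes were -1.18 and -1.32 over the members and 0.02 and 0.05 over all genes, in the same order of contrasts. Both contrasts share the 3 lin-28 libraries, and 1 of them carried much of the number: without lin-28 replicate 1 the calls were 3 and 10. The first count was 11 without lin-28 replicate 2 or without lin-4 null replicate 1, and 6 on the authors' normalized values. In lin-28 replicate 1 K11D2.4 had 3508 scaled values, against 1677 and 1089 in the other lin-28 libraries, and its size factor of 0.674 was the lowest of the 37. The lin-4 and lin-14 mutants were also collected 57 h after plating and the lin-28 mutant 53 h, which cannot be told apart from genotype. Of 19 pan-neuronal genes, 1 was lower in the lin-4 null and 6 in the lin-14 mutant, with 0 higher in either. Of 8 heterochronic genes, 1 was higher and 1 lower in the lin-4 null, and 2 were higher and 1 lower in the lin-14 mutant. Of the glial genes, the 6 in the table summed to 1228 to 4074 scaled values in the lin-4 null and 1115 to 3572 in the lin-14 mutant. The sum was 4352 to 6850 in the lin-28 mutant. Singly these genes differed less than the members, with median log2 fold changes of -0.22 and -0.46, and 0 and 1 of the 6 were called lower. Their part in the members' difference was not tested.

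C26G2.2 gave the firmest difference. It had 263, 341, 239 and 306 scaled values in the lin-4 null, 229, 146, 215, 295 and 377 in the lin-14 mutant, and 1830, 1475 and 717 in the lin-28 mutant. Its log2 fold change was -2.13 for lin-4 null over lin-28 (SE 0.30, limma adjusted p = 2.63e-05) and -2.37 for lin-14 over lin-28 (SE 0.29, limma adjusted p = 1.28e-06). Neither mutant overlapped the lin-28 libraries. In adult controls C26G2.2 had 39.8 to 71.9 CPM in neuronal IP and 27.2 to 54.4 in input. These libraries overlapped, with a log2 ratio of mean CPM of 0.27, so its adult RNA was not marked as neuronal by IP against input. C45G9.8 had 21.2, 26.4, 31.5 and 21.1 in the lin-4 null, 6.10, 17.5, 51.7, 27.4 and 24.3 in the lin-14 mutant and 129, 168 and 112 in the lin-28 mutant, with log2 fold changes of -2.40 (SE 0.64) and -2.63 (SE 0.61). F55G11.1 had 31.8, 32.1, 46.8 and 36.2 in the lin-4 null, 34.6, 31.5, 30.5, 34.7 and 43 in the lin-14 mutant and 120, 109 and 129 in the lin-28 mutant. Its log2 fold changes were -1.69 (SE 0.32) and -1.75 (SE 0.31), and the lin-28 libraries stood clear above. ZK622.5 had 46.8, 84.7, 149, 67.4 and 120.5 in the lin-14 mutant and 512, 547 and 680 in the lin-28 mutant, the largest fall of that contrast among the members (-2.72, SE 0.42, limma adjusted p = 5.85e-05). Its fall was 1.58 in the lin-4 null (SE 0.44, limma adjusted p = 0.0211).

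Further falls of over 2 on the log2 scale were those of ZC449.8 (-2.18, SE 0.52, in the lin-4 null and -2.53, SE 0.50, in the lin-14 mutant), Y48B6A.10 (-2.12, SE 0.52, in the lin-4 null), C05C8.8 (-2.02, SE 0.55, in the lin-4 null) and F22F4.4 (-2.43, SE 0.40, in the lin-14 mutant). ZC247.1 had 125687, 135282, 158038 and 131317 in the lin-4 null, 108357, 56004, 127371, 126829 and 115331 in the lin-14 mutant and 238652, 252710 and 206479 in the lin-28 mutant. It fell by 0.76 in the lin-4 null (SE 0.23, limma adjusted p = 0.0381) and by 1.18 in the lin-14 mutant (SE 0.22, limma adjusted p = 0.000596), with no overlap in either. C49G7.10 went against the set: it had 474, 615, 456, 218 and 362 in the lin-14 mutant and 205, 192 and 194 in the lin-28 mutant, a log2 fold change of 1.03 (SE 0.28, limma adjusted p = 0.0105).

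**Figure D4:**
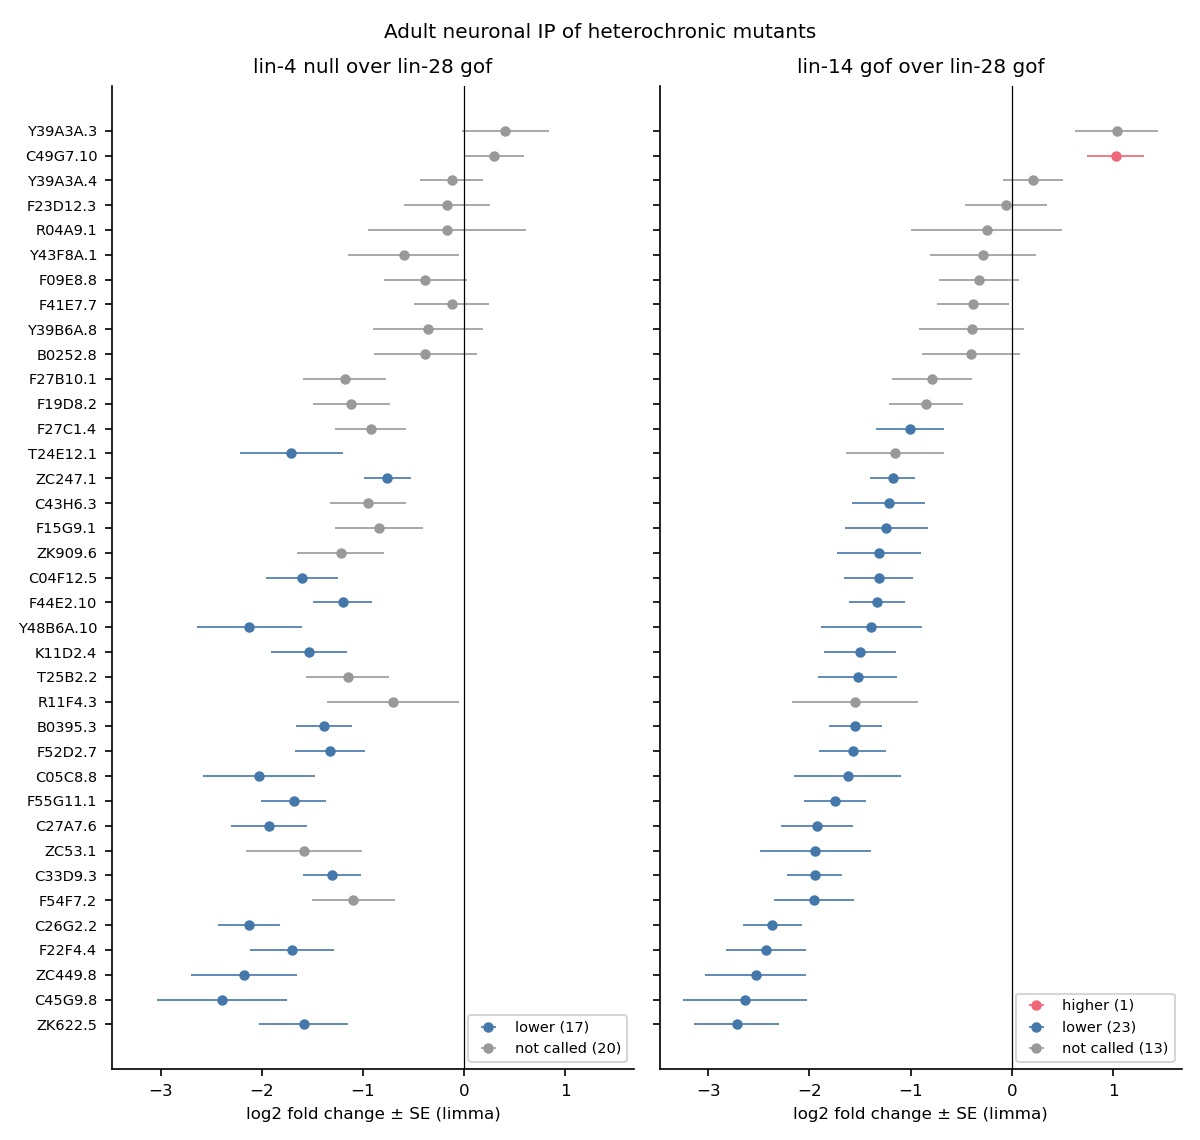
Log2 fold change with its SE for each member in adult lin-4 null (left) and the lin-14 mutant (right), each over the lin-28 mutant, ordered by the right-hand value. Calls at adjusted p under 0.05 are coloured: 17 lower on the left, 23 lower and 1 higher on the right.

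The calls were also counted by the classes seen in input, which come from other libraries. Of the 19 members that rose in adult input, 14 were lower in the lin-4 null than in the lin-28 mutant and 18 were lower in the lin-14 mutant. Of the 5 that fell in input, 0 were called lower in either contrast, and of the 13 not called in input, 3 and 5 were. The difference between these classes was not tested, and the counts rest on the class of 5, which held 2 to 7 members with 1 library left out, and on lin-28 replicate 1. The rise within the lin-4 null was called for 16 of the 19, 5 of the 5 and 12 of the 13. In adult controls the neuronal IP libraries lay wholly above the inputs for only 3 of the 19, but for 5 of the 5 and 11 of the 13. The median log2 ratios of IP to input were 0.54, 3.49 and 2.96, in the same order. Most calls against the lin-28 mutant thus fell on members with little enrichment in adult neuronal IP. These ratios share the adult input libraries with the classes. Y39A3A.3, Y39A3A.4 and F41E7.7, of the class that fell in input, had log2 fold changes of 0.41 (SE 0.43), -0.12 (SE 0.31) and -0.12 (SE 0.37) in the lin-4 null over the lin-28 mutant. Of the nssp class, C04F12.5 (nssp-7) was lower in both mutants (-1.60, SE 0.36, and -1.32, SE 0.34), and the other 4 were called in neither. Of the 39 germline and oocyte genes, 0 are in the table that covers the mutants, so whether such RNA differed between these genotypes was not tested. Of the 24 yolk and intestine genes 1 is in it, and it had 8.50 to 26.2 scaled values in the lin-4 null, 7.37 to 23.8 in the lin-14 mutant and 4.36 to 6.05 in the lin-28 mutant. It was called higher in the lin-14 mutant (limma log2 fold change 1.62) and not in the lin-4 null (1.38). In control neuronal IP that gene had 8.55 to 46.9 scaled values in L1 and 1.22 to 5.40 in adults, whereas the list's summed CPM rose. It therefore does not stand for the list. The 1 sperm gene there was called in neither. In control neuronal IP it had 19.7 to 46.9 scaled values in L1 and 11.02 to 28.05 in adults, whereas the summed CPM of the sperm list rose. That gene does not stand for its list either.

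Adult lin-4 null neurons set against those of the lin-14 mutant gave 0 called members (limma, 5 at an unadjusted p under 0.05), where 0.0632% of the 6325 genes were higher and 0.0949% lower, 0.158% in all. The log2 fold changes ran from -0.73 for Y48B6A.10 (95% interval -1.63 to 0.16) to 1.14 for ZK622.5 (0.38 to 1.89), so differences of that size are within the intervals, and the absence of calls does not show that the genotypes act alike.

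Against adult control neurons, whose libraries took part in the choice, the values are a description. In the lin-4 null, 7 members had every library below every control library and 0 above, where 4.51% and 4.08% of genes tested did so. In the lin-14 mutant 8 lay wholly below and 0 above (4.21% and 2.83% of genes), and in the lin-28 mutant 0 lay wholly below or above (0.854% and 0.664% of genes). Means were lower than in controls for 30 members in the lin-4 null and 31 in the lin-14 mutant, with median log2 ratios of -0.62 and -0.78, and higher for 33 in the lin-28 mutant, with a median of 0.49. Set against replicates 4 to 7 of the controls alone, the wholly lower counts were 15 and 17, and against replicates 1 to 3 alone 18 members lay wholly higher and 1 wholly lower in the lin-28 mutant. Without lin-4 null replicate 3, lin-14 replicate 3 or lin-28 replicate 3, 17, 14 and 8 members lay wholly apart from the controls in those mutants. The lowest ratios in the lin-4 null were those of Y48B6A.10 (-2.21), C45G9.8 (-2.16), C26G2.2 (-1.71) and C05C8.8 (-1.58), and in the lin-14 mutant those of ZK622.5 (-2.64), C45G9.8 (-2.14), F22F4.4 (-1.94) and C26G2.2 (-1.90). C26G2.2 averaged 287 in the lin-4 null and 253 in the lin-14 mutant, against 945 ± 336 in adult controls (n = 7) and 232 in L1 controls. On the log2 scale its adult mean had covered 15.3% of the L1 to adult distance of controls in the lin-4 null and 6.13% in the lin-14 mutant, where the median member had covered 75.8% and 70.9%, and 118% in the lin-28 mutant. The highest ratios were 0.82 for R04A9.1 and 0.44 for F23D12.3 in the lin-4 null, 1.16 for C49G7.10 and 0.71 for R04A9.1 in the lin-14 mutant, and 1.35 for ZC449.8 and 1.07 for ZK909.6 in the lin-28 mutant.

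**Figure D5:**
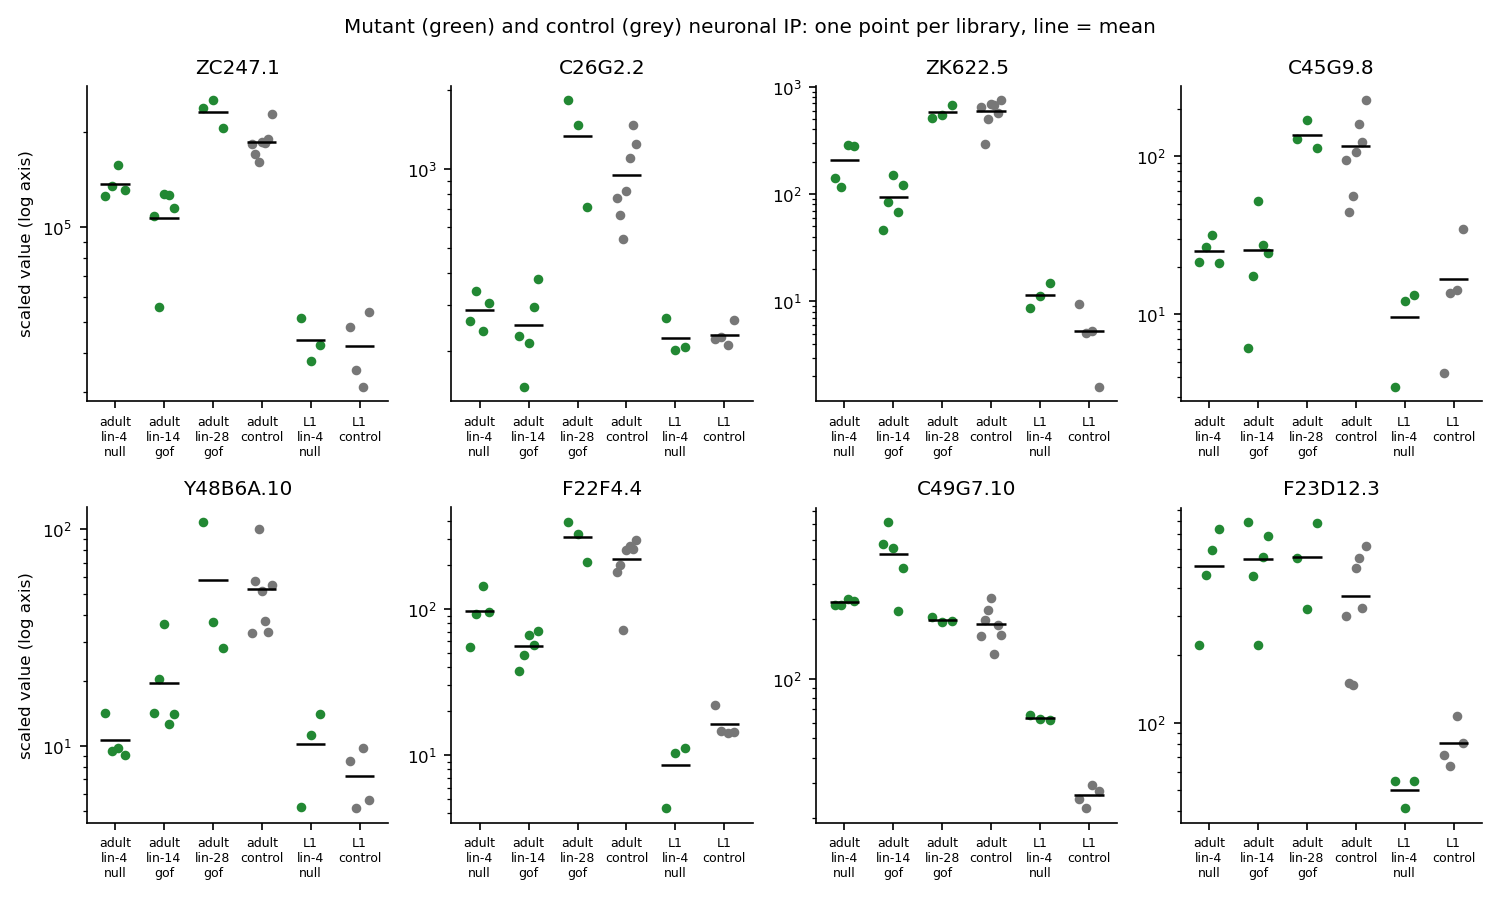
Scaled value (log axis) in every neuronal IP library of the adult lin-4 null, the lin-14 and lin-28 mutants and the control, and of L1 lin-4 null and control, for 8 members. C26G2.2 and Y48B6A.10 stand near their L1 level in the adult lin-4 null, ZK622.5 stays far above its own L1 level in every adult group, and C49G7.10 is highest in the lin-14 mutant.

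In L1 the lin-4 null and control lay close for most members, with a median log2 ratio of -0.04. The L1 lin-4 null libraries lay wholly above the L1 controls for 1 member and wholly below for 2, where 3.32% and 2.58% of genes tested did so. C49G7.10 was the higher one, with 65.8, 62.6 and 61.9 scaled values in the L1 lin-4 null and 24.7, 22.2, 29.1 and 27.3 in L1 controls. F22F4.4 (4.33, 10.3 and 11.3, against 22.2, 14.5, 14.1 and 14.4 in L1 controls) and F23D12.3 (54.5, 41.2 and 54.4, against 71.6, 64.1, 107 and 81 in L1 controls) were the lower ones, though Y43F8A.1 had the lowest ratio of means (-0.92). The L1 control libraries helped to choose the members, so no test is given.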

How the data were processed

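The members, gene lists and tests were chosen with earlier results of these data known. The submitters' processing notes list Subread, featureCounts and DESeq2, with no role or version. The raw counts deposited by the authors cover 41897 genes in 38 control libraries. The deposited size-adjusted values are treated as a score: counts rescaled by the authors to a common library sum (3998798 to 4000500) over 7974 genes in 37 neuronal IP libraries, since 100% of control values equalled rescaled counts within 0.6. A pair of deposited normalized tables holds a signal and served as an alternative. Gene lengths are other values from the authors' tables. Of 69727 exons listed there, 3.95% lie at WBcel235 coordinates, so the reference was used for names only.

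Size-adjusted values were divided by median-ratio factors (0.674 to 1.43, over 5244 genes). Counts were tested with edgeR 4.0.16 (quasi-likelihood, TMM, minimum count 10) and scaled values with limma 3.58.1 (trend, robust, pseudocount 1, at least 10 in 3 libraries) in R 4.3.3. Both were also run on simulated data of independent libraries. That setting held no uneven replicates or broad shifts between groups, so it does not check the tests under such conditions. All groups of each table shared a fit, and adjusted p is Benjamini-Hochberg over all genes tested (threshold 0.05). Nothing in the labels ties replicates to separate cultures, and the p-values reflect library-to-library spread that may be technical. Same-numbered L2 IP and input libraries deviated together (correlations of 0.143 to 0.304 over 3 pairs), so those numbers pair the samples. The replicate block gave 23 calls there, against 18 with those groups fitted alone without it. Named members were the 6 of highest adult mean, the 6 of largest ratio, those nearest the thresholds, and in each comparison the 5 largest calls each way, the 3 of lowest adjusted p and, for mutants against controls, the 4 lowest and highest ratios, besides members with a symbol. Members singled out otherwise were chosen after their values were seen. Alternatives were other scalings, filters, pseudocounts, DESeq2 1.42.0, separate fits, the replicate block and leaving out each library.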

Additional observations from a re-analysis of the deposited data

Results flagged for a closer look

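For the 6 members of highest adult mean and the 6 of largest ratio, 108 groups of 4 to 10 libraries were examined for a library far from the others by Dixon's criterion, which chance alone meets in about 1 in 20 groups, and 9 values met it. C33D9.3 stood at 916 scaled values in L2 neuronal IP replicate 3, against 550 in the next library, and at 59.9 CPM in L4 input replicate 4, against 15.7. F22F4.4 stood at 22.2 scaled values in L1 neuronal IP replicate 1, against 14.5, and at 26.1 CPM in L4 input replicate 1, against 18.2. F27B10.1 stood at 7.08 CPM in L4 input replicate 4, against 2.00. K11D2.4 stood at 2123 scaled values in adult control neuronal IP replicate 7, against 1405. ZC247.1 stood at 56004 scaled values in lin-14 gain-of-function replicate 2, against 108357, and that library also had the highest size factor, 1.43. ZC449.8 stood at 17.7 scaled values in L1 neuronal IP replicate 4, against 6.18, and at 104 in adult lin-4 null replicate 3, against 55.7.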

How the results depend on the processing

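The number of genes that met the choice depended on the scale and the libraries: it was 37, but 19 on size-adjusted values as deposited, 24 with a pseudocount of 10, 24 with adult replicates 1 to 3 alone (21 shared), 58 with replicates 4 to 7 alone (35 shared) and 7 on TMM CPM of all genes, and 31 to 42 when 1 library was left out. L2 neuronal IP against input gave 22 calls, but 12 with no filter on low counts, and 11 to 24 with 1 library left out. For lin-4 null against lin-28 gain of function the 17 calls were 11 on values as deposited, 6 on the authors' normalized values, 12 with these 2 groups fitted alone, 5 with the replicate block added to that fit and 3 to 23 with 1 library left out. Leaving out lin-4 null replicate 1 or lin-28 replicate 2 gave 11. For lin-14 against lin-28 gain of function the 24 calls were 10 to 26 with 1 library left out. The cause was not tested. Members wholly apart from adult controls numbered 7 in the lin-4 null (15 against replicates 4 to 7, and 7 to 17 with 1 library left out), 8 in the lin-14 mutant (4 on values as deposited, 17 against replicates 4 to 7, and 8 to 14) and 0 in the lin-28 mutant (19 against replicates 1 to 3, and 0 to 8). Without lin-4 null replicate 3 the first count was 17, without lin-14 replicate 3 the second was 14, and without lin-28 replicate 3 or adult control replicate 7 the third was 8 or 2. With 1 library left out, adult against L1 input had 21 to 26 calls (19 rises and 2 to 7 falls), adult against L1 lin-4 null 30 to 33 and lin-4 null against lin-14 gain of function 0. Of 577 refits of 38 named fold changes, 41 lost the call, 536 kept it and none reversed. These 38 were picked among the calls of the main fits by size or adjusted p, so their stability does not stand for that of all calls. Outside the L2 comparison the replicate numbers did not pair the samples (correlations of -0.201 to 0.259), and the block gave 21 calls in input (19 rises and 2 falls, against 19 and 4 with those groups alone), 33 within the lin-4 null, 22 for lin-14 against lin-28 and 0 for lin-4 against lin-14. Members under 1 CPM in input rest on few counts.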
